A study of Mus musculus with 8 samples.

Results

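The genes described here are 10 genes of cytotoxic and effector lymphocytes, Nkg7, Gzma, Gzmb, Prf1, Klrd1, Slamf7, Il18r1, Il18rap, Ikzf3 and Ccl5, out of 37991 genes in the count table. They were found by matching the Ensembl identifier of each row to its symbol, and each matched 1 row. They had been chosen with the counts of these same libraries in view, so the difference between the groups in these 10 genes is given as a description, with no test resting on it. RNA had been sequenced from 4 libraries of single colored cells and 4 libraries of double colored cells, both labelled as cardiomyocytes isolated from adult mouse heart. All hearts had received adenovirus encoding 4 cell cycle genes, and cells were isolated 2 weeks later from mice of the alpha-MHC MERCREMER MADM background. In these mice the cardiomyocyte promoter of alpha myosin heavy chain drives an inducible Cre, and MADM (mosaic analysis with double markers) is a reporter in which some divisions leave daughter cells of 1 color. Single colored cells are labelled as having performed the cell cycle, and double colored cells as having been treated in the same way without performing it. There was no group without the adenovirus. The labels give neither the age of the mice nor whether a library came from 1 animal.

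Natural killer cells and cytotoxic T cells kill target cells by releasing granules. Perforin opens the membrane of the target, and granzymes, serine proteases, enter it and start cell death. Interleukin 18, acting on a receptor of 2 chains, raises the production of interferon gamma by these lymphocytes, and the chemokine Ccl5 draws further leukocytes. In heart muscle such transcripts are known from infiltrating and resident lymphocytes. Some of the genes are also known from other cells, such as macrophages, as stated below. Which cells the transcripts came from in these libraries was not tested.

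Promoter sequences are shown for 4 of the genes with binding motifs of T-box or RUNX factors, which are known to act on cytotoxic lymphocyte genes, before the start. Prf1, which is not shown, also had a RUNX core there, at −130. The sequences are the 250 bases before the annotated start, from RefSeq on build GRCm38.p6, 5′ to 3′ on the strand of the gene, and the capitals mark TCACAC (T-box core) or TGTGGT (RUNX core) on either strand.
Gzmb, chr14:56262335-56262584, minus strand: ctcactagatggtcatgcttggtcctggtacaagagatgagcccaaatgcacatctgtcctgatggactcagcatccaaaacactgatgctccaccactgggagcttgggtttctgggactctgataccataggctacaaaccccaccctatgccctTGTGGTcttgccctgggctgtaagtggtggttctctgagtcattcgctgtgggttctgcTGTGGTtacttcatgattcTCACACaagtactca
Nkg7, chr7:43436888-43437137, plus strand: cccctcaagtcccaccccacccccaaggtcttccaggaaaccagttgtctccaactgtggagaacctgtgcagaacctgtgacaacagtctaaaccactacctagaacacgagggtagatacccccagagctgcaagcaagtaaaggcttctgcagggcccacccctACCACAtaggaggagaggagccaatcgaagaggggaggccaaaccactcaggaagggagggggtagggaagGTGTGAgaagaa
Gzma, chr13:113100982-113101231, minus strand: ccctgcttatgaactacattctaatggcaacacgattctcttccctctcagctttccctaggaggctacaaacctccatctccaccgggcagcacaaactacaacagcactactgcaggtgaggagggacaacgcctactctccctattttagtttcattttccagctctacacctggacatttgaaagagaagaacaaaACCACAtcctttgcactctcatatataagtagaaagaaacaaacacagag
Slamf7, chr1:171649000-171649249, minus strand: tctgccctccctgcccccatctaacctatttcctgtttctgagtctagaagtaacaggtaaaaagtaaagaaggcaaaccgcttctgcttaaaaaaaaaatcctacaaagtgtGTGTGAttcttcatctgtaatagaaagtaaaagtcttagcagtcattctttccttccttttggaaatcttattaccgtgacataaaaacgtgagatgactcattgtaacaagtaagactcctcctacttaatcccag

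The table of promoters held windows for 7 of the 10 genes, 9 windows in all, of which 3 belong to Il18r1 (the first 2 overlap), and each window reached from 250 bases before to 50 bases after a start. A T-box core lay in 3 of these 9 windows, those of Gzmb, Nkg7 and Slamf7, and in 14.5% of all 32851 windows. A RUNX core lay in 6 of the 9, those of Gzma, Gzmb, Nkg7, Prf1, Il18rap and 1 of Il18r1, against 16.8% of all windows. In Il18rap and Il18r1 it lay after the start. In Gzmb the T-box core began at −15 and RUNX cores at −34 and −93, and in Nkg7 the T-box core began at −12 and a RUNX core at −83, with positions counted back from the start. The Ikaros core TGGGAA lay in 4 of the 9 windows (Prf1 and all 3 of Il18r1) against 25.6% of all windows. The first 2 windows of Il18r1 share the same Ikaros site, so it was counted in both, and by gene the core was found in 2 of 7. The STAT motif TTCNNNGAA lay in 3 of the 9, those of Gzmb, Nkg7 and 1 of Il18r1, against 8.30% of all windows. In that Il18r1 window both STAT matches shared bases with an Ikaros core, and no other matches overlapped. The interferon-stimulated response element was found in 1 of the 9, that of Gzma, against 3.44% of all windows. These matches describe the letters of the windows and say nothing of binding in these cells. Ikzf3, Klrd1 and Ccl5 had no entry.

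Libraries held 23820700 to 30082278 counted reads. Mitochondrially encoded genes took 77.5% to 85.9% of the reads in single colored and 84.2% to 88.3% in double colored libraries, which left 3750616 to 6112595 and 3503353 to 3850391 reads of nuclear genes. Levels are given as CPM, reads scaled to library size with TMM factors, and the library sizes include the mitochondrial reads. The cardiomyocyte label was checked against 8 defining genes such as Myh6 and Tnnt2, whose summed level was 11504 to 21475 CPM in single colored and 17842 to 24829 CPM in double colored libraries. Each of the 8 was at 91.5 CPM or more in every library. In the edgeR fit none of the 8 passed, with a median log2 fold change of −0.45; 3 had an unadjusted p under 0.05, none passed with DESeq2, 2 were lower with the replicate block, and the median was 0.02 with library totals alone. Single colored replicate 1 had the lowest cardiomyocyte sum, 11504 CPM, and also the highest level of most of the 10 genes. In bulk RNA, fewer cells of a type and less RNA per cell cannot be told apart. Intervals and floors given below cover counting error only, and the labels name no molecular identifiers for the amplified cDNA.

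The 10 genes were more abundant in single than in double colored libraries, by 2.35 times (Prf1) to 11.8 times (Il18rap) as ratios of mean CPM. Of the 10, 9 had enough reads to enter the fit across 12466 genes, and Prf1 did not. All 9 had positive log2 fold changes, single over double colored, between 1.30 (Klrd1) and 3.55 (Il18rap), with a median of 2.43 against −0.0053 over all genes tested. In that fit 5 of the 9 had an adjusted p under 0.05, Slamf7, Ikzf3, Il18rap, Nkg7 and Ccl5, as had 2.32% of all genes in the same direction and 0.16% in the other (edgeR quasi-likelihood test). For 6 of the 10 the lowest single colored library lay above the highest double colored one, as it did for 5.37% of all genes tested. Because the genes were picked from these counts, neither share is evidence about the list. The genes past the threshold upward numbered 289 in all, and 134 without single colored replicate 1, 184 without double colored replicate 2 or 133 without double colored replicate 4. When the replicate number was added as a block, 8 of the 9 passed, all but Klrd1, and 619 of all genes were higher. Ccl5 did not pass without single colored replicate 1, 3 or 4 or double colored replicate 1, 2 or 4 (edgeR adjusted p up to 0.157), whereas Gzmb passed without double colored replicate 3 (edgeR adjusted p = 0.00637) and Il18r1 without double colored replicate 4 (edgeR adjusted p = 0.0429). With both libraries of number 1, 2 or 4 left out Ccl5 did not pass either (edgeR adjusted p up to 0.254). Gzma and Gzmb passed without both of number 3 (0.0479 and 0.0210), and Il18r1 without both of number 4 (0.0408).

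**Figure D1:**
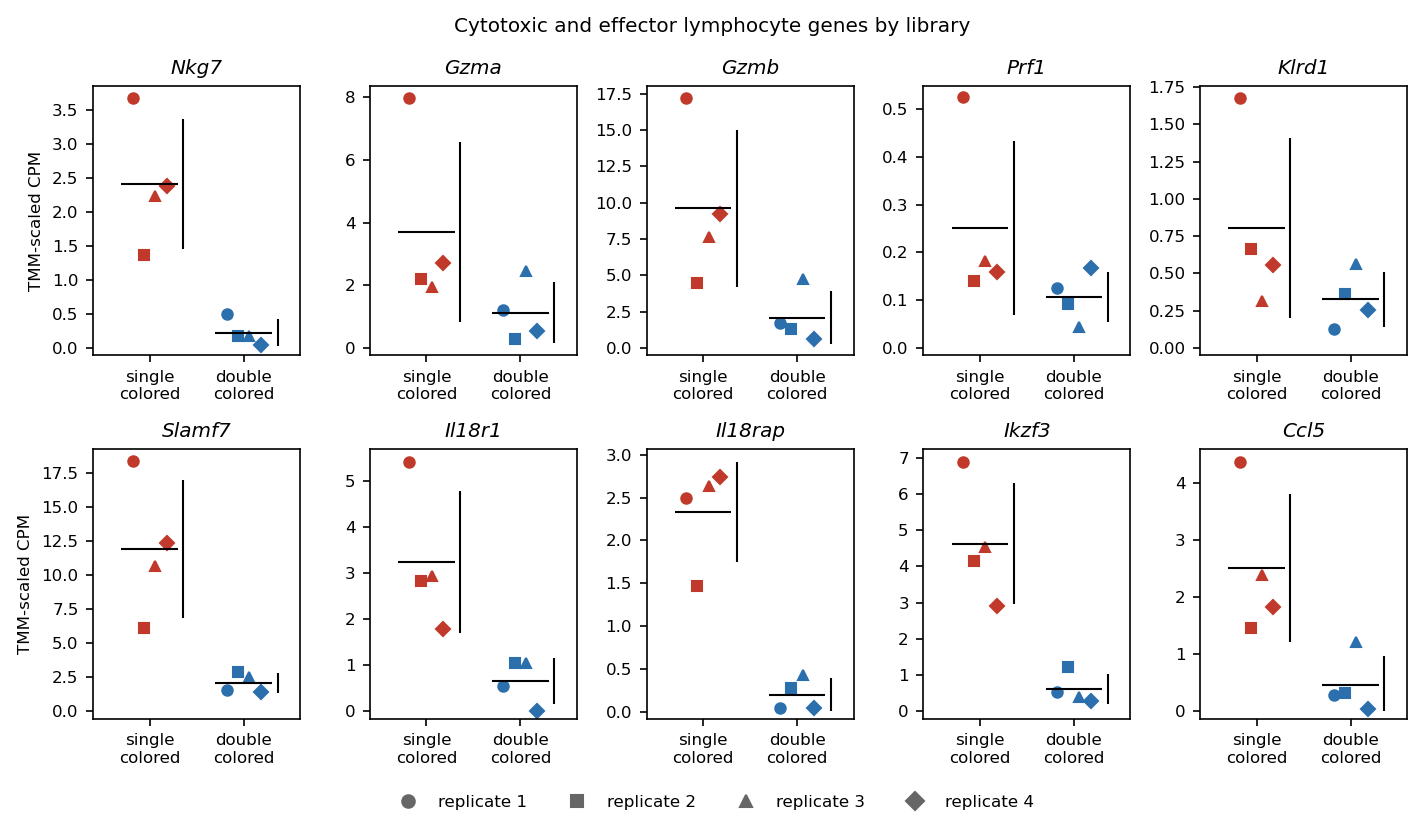
TMM-scaled CPM of each of the 10 genes in the 4 single colored and 4 double colored libraries, with symbols for the replicate number, horizontal lines for group means and vertical bars for ± SD. Single colored replicate 1 was the highest of all libraries for 9 of the 10 genes, and the groups did not overlap for 6 of them.

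Gene coordinates are in mm9, as deposited. Among the granule genes, Nkg7 (ENSMUSG00000004612, mm9 chromosome 7, 50692443 to 50693616, plus strand), which encodes a membrane protein of cytotoxic granules, had 140, 39, 86 and 60 reads in single colored replicates 1 to 4 and 12, 4, 4 and 1 reads in double colored replicates 1 to 4. The groups did not overlap, and double colored replicate 4 was the lowest library. Nkg7 averaged 2.41 ± 0.951 CPM in the single colored group, against 0.225 ± 0.196 CPM in the double colored group (SD, n = 4 each), a log2 fold change of 3.40 ± 0.52 (SE). Its ratio of means was 10.7, and 18.3 without double colored replicate 1, which held 12 of the 21 double colored reads.

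Gzmb (ENSMUSG00000015437, chromosome 14, 56877693 to 56881097, minus strand) encodes granzyme B, which cleaves after aspartate and activates caspases. It had 656, 128, 293 and 232 reads in single colored replicates 1 to 4 and 41, 29, 110 and 14 reads in double colored replicates 1 to 4. Double colored replicate 3 stood above the other double colored libraries and, at 4.75 CPM, just above single colored replicate 2 at 4.47 CPM, so the groups overlapped. The means were 9.62 ± 5.42 CPM in single colored libraries, against 2.09 ± 1.83 CPM in double colored ones (SD, n = 4 each), with a log2 fold change of 2.20 ± 0.62 (SE). The ratio of means, 4.60, was 7.97 without double colored replicate 3.

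Gzma (ENSMUSG00000023132, chromosome 13, 113884033 to 113891187, minus strand) encodes granzyme A, a trypsin-like granule protease. Its reads numbered 304, 63, 74 and 68 in single colored replicates 1 to 4 and 29, 6, 57 and 13 in double colored replicates 1 to 4. The same double colored replicate 3 was high here, at 2.46 CPM, above single colored replicates 2 and 3 at 2.20 and 1.93 CPM. Gzma averaged 3.70 ± 2.86 CPM in the single colored group, against 1.12 ± 0.977 CPM in the double colored group (SD, n = 4 each), and its ratio of 3.29 was 2.02 once single colored replicate 1 was left out and 5.46 once double colored replicate 3 was. Its log2 fold change was 1.72 ± 0.64 (SE).

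Prf1 (ENSMUSG00000037202, chromosome 10, 60760584 to 60767011, plus strand), the perforin gene, was near the limit of what this depth can show. It had 20, 4, 7 and 4 reads in single colored replicates 1 to 4 and 3, 2, 1 and 4 reads in double colored replicates 1 to 4. Single colored replicate 1 held 20 of the 35 single colored reads, and the groups overlapped. With 35 and 10 reads in all, the ratio of rates was 2.49 with an exact 95% interval of 1.21 to 5.65, and the ratio of means of 2.35 was 1.50 without single colored replicate 1.

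The receptors of natural killer cells differed from each other in depth. Klrd1 (ENSMUSG00000030165, chromosome 6, 129541800 to 129548793, plus strand) encodes a lectin-like chain that pairs with other killer cell lectins to sense MHC class I. It had 64, 19, 12 and 14 reads in single colored replicates 1 to 4, against 3, 8, 13 and 6 in double colored replicates 1 to 4. Apart from single colored replicate 1 the libraries of both groups lay close together, and the ratio of means of 2.46 was 1.57 without it (log2 fold change 1.30 ± 0.61, SE).

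Slamf7 (ENSMUSG00000038179, chromosome 1, 173562534 to 173579149, minus strand) encodes a self-binding receptor of the SLAM family, found on natural killer cells and also on activated T cells, B cells and macrophages. It was the most deeply counted of the 10, with 701, 175, 410 and 312 reads in single colored replicates 1 to 4 and 38, 64, 58 and 33 reads in double colored replicates 1 to 4. Every single colored library lay above every double colored one. Its levels were 11.9 ± 5.07 CPM in single colored libraries, against 2.10 ± 0.730 CPM in double colored ones (SD, n = 4 each), with a log2 fold change of 2.51 ± 0.32, the smallest SE among the 9 fitted genes.

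The receptor for interleukin 18 is made of a binding chain, Il18r1, and an accessory chain, Il18rap, whose genes lie next to each other on chromosome 1 on the plus strand. Il18r1 (ENSMUSG00000026070, 40522397 to 40557699 in mm9) had 207, 81, 113 and 45 reads in single colored replicates 1 to 4, and 13, 23, 24 and 0 in double colored replicates 1 to 4. The 0 in double colored replicate 4 allows a level of up to 0.125 CPM, the value of 3 reads. Il18r1 averaged 3.24 ± 1.54 CPM in the single colored group, against 0.657 ± 0.496 CPM in the double colored group (SD, n = 4 each; log2 fold change 2.31 ± 0.61, SE), with no overlap between the groups.

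Il18rap (ENSMUSG00000026068, 40572207 to 40608550 in mm9) had 95, 42, 101 and 69 reads in single colored replicates 1 to 4, and 1, 6, 10 and 1 in double colored replicates 1 to 4. It differed from the other 9 genes in that single colored replicate 4 was the highest library, at 2.74 CPM, with replicates 3 and 1 at 2.63 and 2.49 CPM. Means were 2.33 ± 0.585 CPM in single colored libraries, against 0.197 ± 0.191 CPM in double colored ones (SD, n = 4 each), giving a log2 fold change of 3.55 ± 0.54 (SE). The ratio of means was 11.8, and 19.6 without double colored replicate 3, which held 10 of the 18 double colored reads.

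Ikzf3 (ENSMUSG00000018168, chromosome 11, 98326216 to 98407345, minus strand) encodes Aiolos, a zinc finger transcription factor of the Ikaros family in B, T and natural killer cells. It had 263, 119, 174 and 73 reads in single colored replicates 1 to 4 and 13, 27, 9 and 7 in double colored replicates 1 to 4. The groups did not overlap, at 4.62 ± 1.67 CPM in single colored libraries, against 0.613 ± 0.422 CPM in double colored ones (SD, n = 4 each; log2 fold change 2.92 ± 0.40, SE). The ratio of means was 7.53, and 11.3 without double colored replicate 2.

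Ccl5 (ENSMUSG00000035042, chromosome 11, 83339280 to 83344020, minus strand), a chemokine of T cells, natural killer cells, macrophages and platelets, had 167, 42, 92 and 46 reads in single colored replicates 1 to 4 and 7, 7, 28 and 1 in double colored replicates 1 to 4. As for the granzymes, double colored replicate 3 was the highest of its group, at 1.21 CPM, but here it stayed below the lowest single colored library at 1.47 CPM. The means were 2.52 ± 1.30 CPM in single colored libraries, against 0.466 ± 0.512 CPM in double colored ones (SD, n = 4 each; log2 fold change 2.43 ± 0.60, SE). Without double colored replicate 3 the ratio of means of 5.40 was 11.6. No exon of any of the 10 genes overlapped an exon of another gene in the deposited mm9 coordinates.

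Levels of different genes were compared per kilobase of the deposited gene length. In single colored libraries Gzmb stood highest at 6.79 ± 3.82 CPM per kilobase, followed by Gzma at 3.94 ± 3.05, Slamf7 at 2.82 ± 1.20, Nkg7 at 2.75 ± 1.08 and Ccl5 at 2.62 ± 1.35 CPM per kilobase (SD, n = 4). The SDs of each neighbour in this group overlapped. A lower group held Il18r1 at 0.679 ± 0.323, Klrd1 at 0.626 ± 0.470, Ikzf3 at 0.527 ± 0.191 and Il18rap at 0.345 ± 0.0867 CPM per kilobase, again with overlapping SDs between neighbours. Prf1 was lowest at 0.122 ± 0.0890 CPM per kilobase. The SDs did not overlap between Ccl5 and Il18r1, nor between Il18rap and Prf1. In double colored libraries Gzmb and Gzma again led, at 1.48 ± 1.29 and 1.20 ± 1.04 CPM per kilobase, and Il18rap was lowest at 0.0292 ± 0.0282 CPM per kilobase, below Prf1 at 0.0520 ± 0.0256 by less than their SDs.

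**Figure D2:**
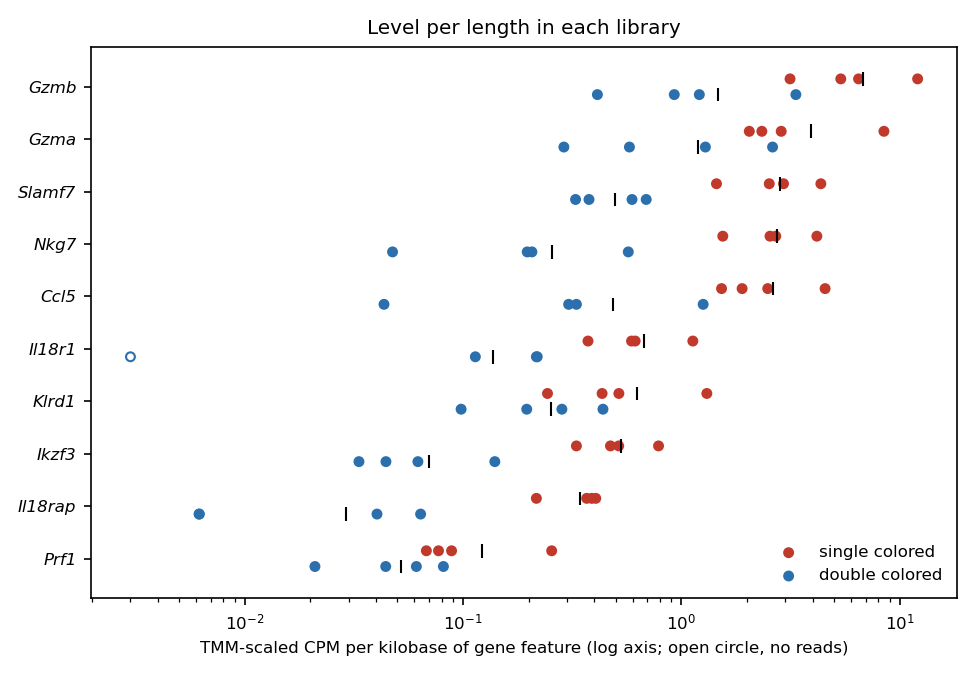
TMM-scaled CPM per kilobase of gene length on a log axis, 1 point per library, with black bars for group means. Genes are ordered by their single colored mean from Gzmb (6.79) down to Prf1 (0.122), and the open circle at the left edge stands for Il18r1 in double colored replicate 4, which had no reads and is not to scale.

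The make-up of the 10 genes varied among libraries of both groups. They held 2617, 712, 1362 and 923 reads together in single colored replicates 1 to 4 and 160, 176, 314 and 80 in double colored replicates 1 to 4. Gzma and Gzmb took between 26.8% (exact 95% interval 23.6 to 30.2) and 36.7% (34.8 to 38.6) of these reads in single colored libraries. In double colored libraries they took between 19.9% (14.3 to 26.6) in replicate 2 and 53.2% (47.5 to 58.8) in replicate 3. The ratio of Gzmb to Gzma ran from 2.03 to 3.96 in single and from 1.08 to 4.83 in double colored libraries, so the ranges overlapped. Paired by replicate number, 7 of the 10 genes were higher in the single colored library of all 4 pairs, and the exceptions were Gzma and Klrd1 in pair 3 and Prf1 in pair 4. For 6 of these 7 genes this follows from the lack of overlap between the groups. The genes were chosen on this contrast and the share over all genes was not computed, so the count is a description only.

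Markers of T cells moved with these genes. Of 12 markers 10 were tested, the log2 fold changes of all 10 were positive (median 2.63), and 7 rose, namely Cd3d, Cd3e, Cd3g, Cd8a, Cd4, Cd5 and Cd2. Cd8a, the coreceptor of cytotoxic T cells, averaged 2.47 ± 0.535 CPM over single colored libraries, against 0.526 ± 0.397 CPM over double colored libraries (SD, n = 4 each; log2 fold change 2.22 ± 0.44, edgeR adjusted p = 0.0117). Cd4 had 3.95 ± 2.07 and 0.594 ± 0.533 CPM in single and double colored libraries (log2 fold change 2.73 ± 0.49, edgeR adjusted p = 0.00868). The rise was thus not limited to the marker of cytotoxic T cells. The count of 7 was 3 without single colored replicate 1 or double colored replicate 4 and 4 without double colored replicate 1, and it was 2, 3, 4 and 3 without pairs 1 to 4. Cd8a passed in each of the 8 omissions of 1 library (edgeR adjusted p up to 0.0490) but not without pair 1, 2 or 4 (edgeR adjusted p of 0.0680, 0.0584 and 0.0817). The T cell markers summed to 14.2 to 33.3 CPM in single colored libraries, against 2.38 to 5.31 CPM in double colored ones, and each had reads in both groups. Divided by this sum, the summed level of the 10 genes was 2.06, 1.41, 1.64 and 2.59 in single colored replicates 1 to 4 and 1.67, 2.07, 2.55 and 1.40 in double colored replicates 1 to 4. The ranges of this ratio were nearly the same in both groups, while the summed CPM of the 10 genes did not overlap, at 24.8 to 68.6 in single and 3.34 to 13.6 in double colored libraries. The ratio was taken to the T cell sum alone, and the macrophage sums given below differed less between the groups than the sum of the 10 genes did. The 10 genes and the T cell markers were both chosen with earlier results of these data known. Nothing about the source of the transcripts is therefore read from this ratio, and the part of T cells in these levels was not tested.

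**Figure D3:**
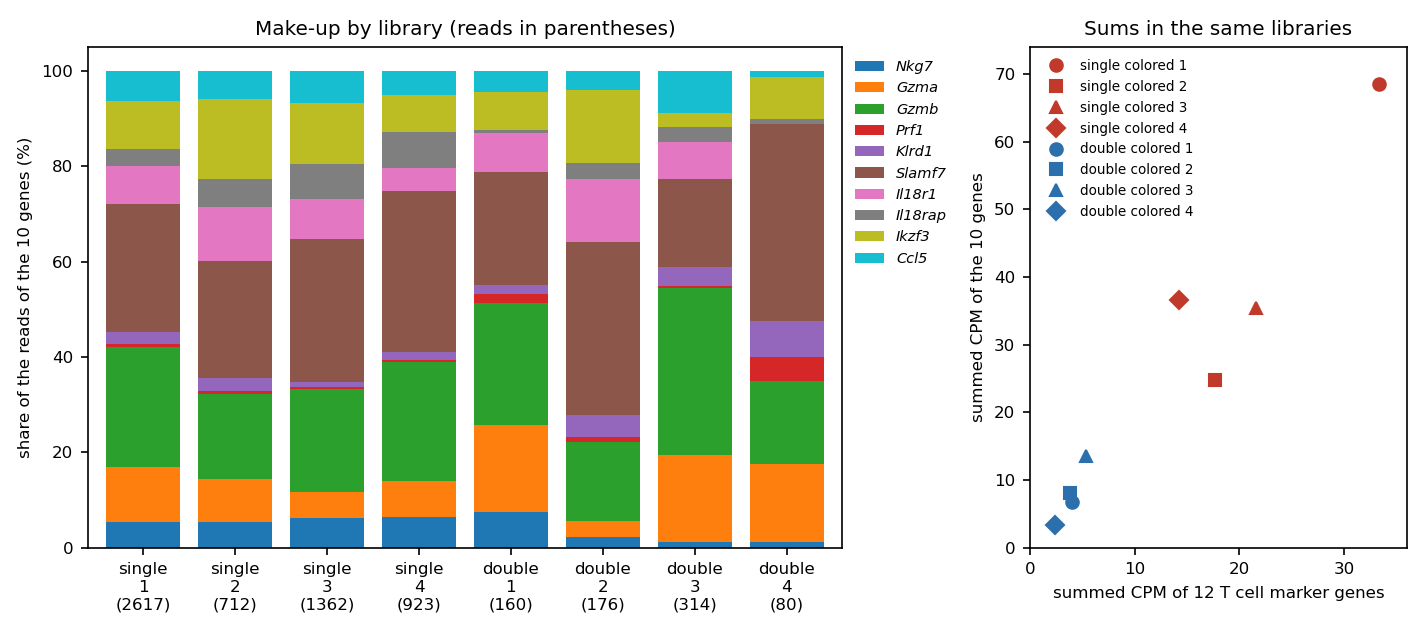
Left, share of the reads of the 10 genes that each gene took in every library (%), with the number of reads in parentheses; right, summed CPM of the 10 genes against summed CPM of 12 T cell markers, 1 point per library. The share of Gzma and Gzmb was highest in double colored replicate 3, at 53.2%, and on the right the single colored libraries lie above and to the right of the double colored ones.

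Ptprc, the gene of the common leukocyte antigen, had 22.5 to 47.7 CPM in single colored libraries and 6.23 to 12.2 CPM in double colored ones. The 8 macrophage markers summed to 128 to 227 CPM in single colored libraries, against 87.7 to 115 CPM in double colored ones, all 8 had positive log2 fold changes (median 0.58), and 1, Adgre1, rose. With the replicate block 4 of the 8 were higher, with DESeq2 3 and with library totals alone 7. In the fit without the block Adgre1 did not pass without single colored replicate 1 or 2 or double colored replicate 2, 3 or 4 (edgeR adjusted p up to 0.124). Nor did Adgre1 pass without both libraries of any pair (edgeR adjusted p up to 0.152). The 7 markers of B and plasma cells summed to 0.278 to 1.02 CPM in single colored libraries, against 0.0432 to 0.712 CPM in double colored ones, none had enough reads to be tested, and Pax5 was at 0 in double colored libraries. Platelet markers, which bear on Ccl5, summed to 1.99 to 2.38 CPM in single colored libraries, against 1.81 to 2.64 CPM in double colored ones. Most of this was Pf4, averaging 1.82 and 1.77 CPM in single and double colored libraries. Ppbp had 18 reads over all single and 1 over all double colored libraries, Itga2b had 25 and 28, Gp1bb had 4 and 3, and Gp9 was at 0 in all. Mast cell markers, which bear on Gzmb, summed to 2.36 to 3.61 and 0.994 to 4.48 CPM in single and double colored libraries. Most of this was Kit, averaging 2.71 and 2.77 CPM in single and double colored libraries, and the others had few reads and differed in direction. Mcpt4 had 22 reads over all single and 2 over all double colored libraries, Cpa3 had 0 and 13, Tpsb2 had 0 and 1, and Ms4a2 was at 0 in all. The part of other cell types in the levels of the 10 genes was not tested.

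Of 17 genes of granules, exocytosis and death ligands, 12 were tested, all with positive log2 fold changes and a median of 0.81, and 3 rose. The granzyme gene Gzmm, too thinly counted to be tested, went the other way, with 14 reads over all single and 26 over all double colored libraries (0.122 against 0.276 CPM). With no filter on low counts 16 of 17 were positive. Unc13d, which encodes Munc13-4, needed for granule release, averaged 0.854 ± 0.124 CPM over single colored libraries, against 0.141 ± 0.0608 CPM over double colored libraries (SD, n = 4 each; log2 fold change 2.57 ± 0.53, edgeR adjusted p = 0.0161). Srgn, the proteoglycan that packs granzymes, had 14.3 ± 1.46 CPM in single colored libraries, against 8.84 ± 1.66 CPM in double colored ones (log2 fold change 0.70 ± 0.17, edgeR adjusted p = 0.0367), and Lyst, a gene of lysosome and granule traffic, 13.4 ± 2.88 CPM in single colored libraries, against 7.71 ± 1.85 CPM in double colored ones (log2 fold change 0.79 ± 0.20, edgeR adjusted p = 0.0461). Serpinb9, the inhibitor of granzyme B, did not pass (0.56 ± 0.24, edgeR adjusted p = 0.270). Unc13d did not pass without single colored replicate 1 or double colored replicate 1 or 4 (edgeR adjusted p up to 0.0708), and Srgn and Lyst failed in 6 of 8 omissions each, all but those of single colored replicate 3 and double colored replicate 1 (up to 0.126 and 0.167). When both libraries of a pair were left out, Unc13d and Lyst never passed (edgeR adjusted p up to 0.102 and 0.219). Srgn then passed only without pair 1 (otherwise up to 0.220). Of this list no gene passed without single colored replicate 1 or double colored replicate 4, and 1 gene passed without single colored replicate 2 or double colored replicate 3.

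Of 22 natural killer receptors and adaptors in the table, 7 had enough reads to be tested, all 7 with positive log2 fold changes (median 2.11), and 3 rose. Klrk1, an activating receptor for stress-induced ligands, averaged 2.05 ± 0.696 CPM over single colored libraries, against 0.320 ± 0.240 CPM over double colored libraries (SD, n = 4 each; log2 fold change 2.66 ± 0.48, edgeR adjusted p = 0.00761), and it passed whichever single library was left out, but not without both libraries of pair 4 (edgeR adjusted p = 0.0864). Cd96, a receptor of T and natural killer cells, differed by 2.87 ± 0.61 in log2 fold change (edgeR adjusted p = 0.0178), and the SLAM family gene Ly9 by 2.14 ± 0.47 (edgeR adjusted p = 0.0237). Cd96 did not pass without single colored replicate 1 or double colored replicate 1, 2 or 3 (edgeR adjusted p up to 0.128), nor Ly9 without single colored replicate 1 or double colored replicate 2, 3 or 4 (up to 0.104). Neither passed without both libraries of any pair (edgeR adjusted p up to 0.173 for Cd96 and 0.0878 for Ly9). Of the list 1 gene passed without single colored replicate 1 or double colored replicate 2. The other 15 were too thinly counted. Klrc1, whose product pairs with that of Klrd1, had 64 reads over all single and 3 over all double colored libraries, Ncr1, a defining receptor of natural killer cells, 39 and 7 reads, and the SLAM adaptor gene Sh2d1a 43 and 0 reads. Scaled to library size, their means were 0.483 against 0.0321, 0.271 against 0.0758 and 0.309 against 0 CPM. Klrc1 ran from 0.234 to 0.838 CPM in single and from 0 to 0.0864 CPM in double colored libraries. For Ncr1 the groups overlapped, at 0.0349 to 0.786 and 0 to 0.216 CPM, with a single colored SD of 0.347 CPM. Sh2d1a was at 0 in its lowest single colored library too. Klrg1 was nearly level, with 39 and 21 reads, or 0.277 against 0.220 CPM. Klrc1, Ncr1, Sh2d1a and Klrg1, like Cd8a, Cd4, Gzmm and Serpinb9 above, were named after their values were seen.

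Of 19 genes of interleukin 18, 12 and 15 signaling, 14 were tested, 13 of them with positive log2 fold changes (median 0.72), and 2 rose. Il2rg, the common receptor chain for interleukin 2 and interleukin 15, averaged 9.44 ± 3.64 CPM over single colored libraries, against 3.73 ± 0.666 CPM over double colored libraries (SD, n = 4 each; log2 fold change 1.34 ± 0.26, edgeR adjusted p = 0.00947), and it did not pass without both libraries of pair 3 (edgeR adjusted p = 0.0541). Casp1, the protease that matures interleukin 18, had 4.44 ± 1.56 CPM in single colored libraries, against 1.70 ± 0.422 CPM in double colored ones (log2 fold change 1.38 ± 0.30, edgeR adjusted p = 0.0200), but did not pass without single colored replicate 1 or 4 or double colored replicate 1, 2 or 4 (up to 0.0727), and Il2rg was then the 1 gene of the list left in 4 of these 5 omissions, all but that of double colored replicate 4. Casp1 also failed without both libraries of pair 1, 2 or 4 (edgeR adjusted p up to 0.147). The ligand gene Il18 itself had 30 reads over all single and 7 over all double colored libraries, whereas Il18bp, the soluble inhibitor of interleukin 18, was measured at 11.9 ± 3.22 CPM in single colored libraries, against 8.13 ± 2.00 CPM in double colored ones (log2 fold change 0.56 ± 0.22, edgeR adjusted p = 0.227). Ifng, the cytokine induced by interleukin 18, had a log2 fold change of 1.57 ± 0.78 on 91 and 21 reads in single and double colored libraries (edgeR adjusted p = 0.366). Il18, Il18bp and Ifng were also named after their values were seen.

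Among transcription factors of effector lymphocytes, 10 of 14 were tested, 9 had positive log2 fold changes (median 0.74), and 3 rose. Ikzf1, the Ikaros gene and a relative of Ikzf3, averaged 10.2 ± 3.91 CPM over single colored libraries, against 3.43 ± 1.03 CPM over double colored libraries (SD, n = 4 each; log2 fold change 1.57 ± 0.28, edgeR adjusted p = 0.00591). Runx3, a factor of cytotoxic T cells, had 1.87 ± 0.380 CPM in single colored libraries, against 0.518 ± 0.124 CPM in double colored ones (log2 fold change 1.84 ± 0.36, edgeR adjusted p = 0.0121), and both genes passed in each of 8 omissions of 1 library. Without both libraries of pair 1, 2 or 4 Runx3 did not pass (edgeR adjusted p of 0.0996, 0.0535 and 0.0985). Nfil3, needed for natural killer cell development, differed by 1.26 ± 0.28 in log2 fold change (edgeR adjusted p = 0.0249) and did not pass without single colored replicate 1 or 2 or double colored replicate 1, 3 or 4 (up to 0.0924). It also failed without both libraries of any pair (edgeR adjusted p up to 0.134). The other Ikaros family genes did not pass, with log2 fold changes of 0.59 ± 0.21 for Ikzf2, 0.39 ± 0.58 for Ikzf4 and −0.42 ± 0.26 for Ikzf5, all 3 named after their values were seen.

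Chemokine receptor and homing genes made up a list of 15 genes, of which 11 were tested, 8 had positive log2 fold changes (median 0.68), and 2 rose. The integrin chain gene Itgal, used in lymphocyte adhesion and in the contact with target cells, had 6.57 ± 3.80 CPM in single colored libraries, against 1.89 ± 0.834 CPM in double colored ones (log2 fold change 1.80 ± 0.37, edgeR adjusted p = 0.0172). Without double colored replicate 2 or 4 Itgal did not pass (up to 0.0648), and the count for the list was then 1. The replicate block changed no call among the genes of these lists named by rule.

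**Figure D4:**
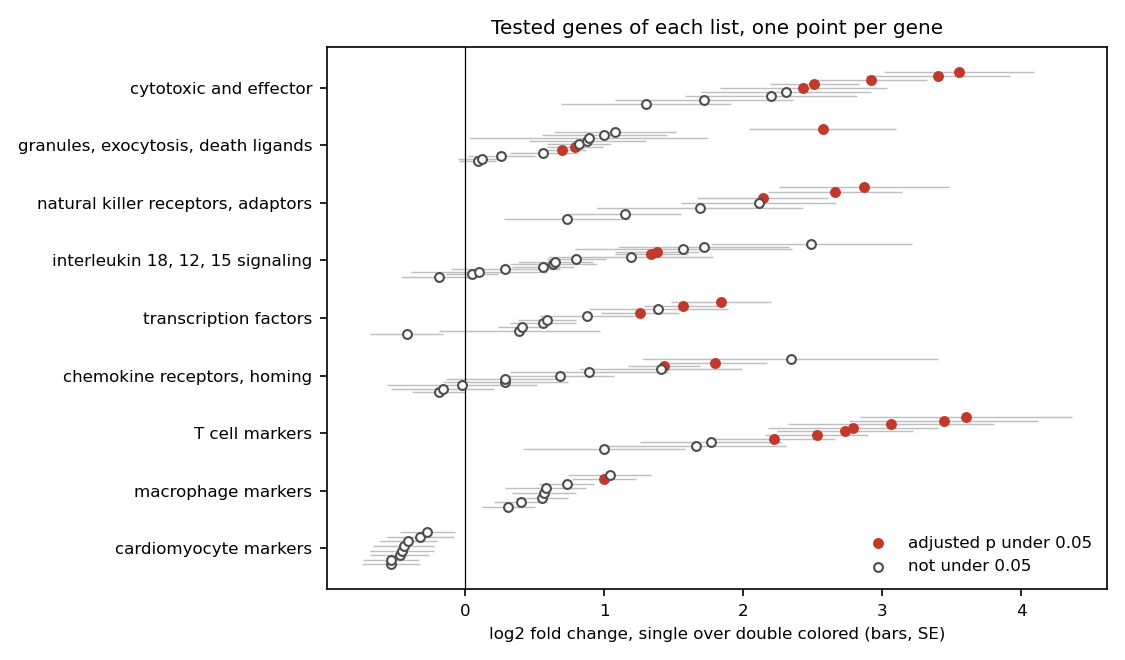
Log2 fold change, single over double colored, of each tested gene of the 10 and of 8 other lists, with bars for the SE and filled points for an adjusted p under 0.05 in the edgeR fit over all genes. The 10 genes and the T cell markers have medians of 2.43 and 2.63, the macrophage markers one of 0.58 and the cardiomyocyte markers one of −0.45.

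The genes whose profile over the 8 libraries was most like the mean profile of the 9 fitted genes were found by the root mean square distance between log2 CPM values, each gene centred on its own mean. Among the nearest were Ifi209, an interferon-inducible gene, at a distance of 0.282 on the log2 scale, Rinl at 0.327, Ms4a4b, a membrane protein gene of T cells, at 0.334, the chemokine receptor gene Ccr2 at 0.376 and Cd180, a Toll-like receptor relative of B cells and myeloid cells, at 0.380. Of the 9 genes themselves Gzmb, at 0.368, Slamf7, at 0.373, and Ccl5, at 0.416, lay nearest to their mean, and Klrd1, at 0.929, lay farthest. Cd180 averaged 19.2 ± 6.74 CPM over single colored libraries, against 4.64 ± 1.53 CPM over double colored libraries, and Ccr2 averaged 11.1 ± 5.20 CPM over single colored ones, against 2.94 ± 1.29 CPM over double colored ones (SD, n = 4 each). The likeness includes the difference between the groups that the 10 genes were chosen on, and it is given with no test.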

How the data were processed

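RNA was measured in 4 single colored and 4 double colored libraries, prepared with an Ovation kit for low RNA input, per the labels. The submitters' processing notes name STAR 2.5.2b, featureCounts of Subread and build mm9. The deposited values are raw whole-number counts per gene, not expected counts, per the file headers. No rounding was applied. The gene length used for levels per kilobase is another deposited column of the authors. No source used here gives the strand setting, and 24 further columns of CPM and FPKM were not used. The replicate labels do not name animals, so p-values measure the spread between libraries, which may be technical.

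Symbols were matched by Ensembl identifier for 32919 of 37991 genes. The fit used edgeR 4.0.16 in R 4.3.3 on all 8 libraries, filterByExpr with a minimum count of 10, TMM scaling and the robust quasi-likelihood F-test, with Benjamini-Hochberg adjustment at 0.05 over 12466 genes. It was tested on simulated data. SEs were derived from the F statistic. Log2 CPM values for profiles used a prior count of 2. Intervals for ratios of rates and for shares are exact binomial at 95%. Alternatives were RLE factors, library totals alone, DESeq2 1.42.0, no filter, removal of mitochondrial genes, the replicate block and omission of libraries.

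The members and lists were chosen with earlier results of these data known. Named genes are the 10 genes, up to 4 past the threshold with the smallest p in each of 5 lists of related genes (2 where none passed), and the 6 nearest profiles, predicted genes left out; some of these are not reported here. As a check of pairing, each library's deviation from its group mean was correlated, over genes, with that of the library of the same number. The r was 0.257, 0.126, 0.136 and 0.139 for pairs 1 to 4, each over 0.1, the bar used for paired numbers. Libraries of unlike number could also exceed this bar, as single colored replicate 3 with double colored replicate 4 did (r of 0.108). The values reported come from the fit without the block, and the blocked fit is given beside a result where it changes a call or moves a count by over 1.5 times. What a number marks is not stated.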

Additional observations from a re-analysis of the deposited data

Results flagged for a closer look

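Of 54 groups of 4 libraries examined (the 10 genes and the genes named from lists and profiles, in both groups), 5 held a library far from the other 3, past the 95% critical value of Dixon's test. For independent groups of normally distributed values chance gives about 1 in 20. The values here are CPM, some from few reads, of genes measured in the same libraries, so that rate need not hold. In 4 of the 5 that library was single colored replicate 1, with 7.97 CPM for Gzma, 0.524 CPM for Prf1, 16.0 CPM for Ikzf1 and 12.2 CPM for Itgal. For Srgn it was single colored replicate 3, at 12.2 CPM, below the other single colored libraries. Single colored replicate 1 also had the lowest summed level of cardiomyocyte markers, 11504 CPM, and the highest T cell and macrophage sums, 33.3 and 227 CPM. The part of these levels in the values was not tested.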

How the results depend on the processing

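No gene among those named by rule changed direction under any alternative, over 468 values, of which 363 kept their side of the threshold, 92 lost a call and 13 gained one. The median log2 fold change of the fitted members stayed between 1.87 and 2.77 over 12 omissions of 1 library or 1 numbered pair, and was 2.96 with library totals alone, a setting that moved the all-gene median to 0.484. Members past the threshold numbered 5, and 8 with no filter on low counts or with the replicate block, and 4 to 7 over the omissions. All genes past the threshold numbered 309 (289 higher, 20 lower), against 1390 (1389 and 1) with library totals alone, 805 (642 and 163) with no filter, 939 (619 and 320) with the replicate block and 556 (455 and 101) with DESeq2. Over the omissions they numbered 94 to 304, 93 to 277 higher and 1 to 29 lower. With library totals alone 8 granule genes, 5 receptor and adaptor genes, 7 interleukin signaling genes and 8 transcription factor genes passed, and with no filter 6 granule, 8 receptor, 4 interleukin and 5 chemokine and homing genes. Over the omissions the counts ran from 0 to 4 for granule genes, 0 to 4 for receptors, 1 to 3 for interleukin signaling, 1 to 3 for transcription factors and 1 to 4 for chemokine and homing genes. The cause of these shifts was not tested. The replicate block changed the calls of Gzma (adjusted p = 0.0203), Gzmb (0.0265) and Il18r1 (0.00299) and no other call among the named genes, by edgeR. Depth kept Prf1 and 15 of the 22 natural killer receptors and adaptors out of the fit.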

Other observations

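Neutrophil genes, which no comparison above uses, summed to 1.54 to 7.94 CPM in single colored libraries, against 0.710 to 1.45 CPM in double colored ones over 5 markers. Of these Csf3r alone had enough reads to be tested, at 1.95 ± 0.644 CPM in single colored libraries, against 0.815 ± 0.305 CPM in double colored ones (SD, n = 4 each; log2 fold change 1.26, edgeR adjusted p = 0.103), and Retnlg had 24 reads over all single and 0 over all double colored libraries.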
